A study of Homo sapiens with 6 samples.

Results

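TALE homeobox genes of the MEIS, PBX, PKNOX and TGIF groups were followed in LX-2 cells, an immortalised human line derived from hepatic stellate cells, after exposure to BMP9, a ligand of the TGF-beta family. Members were all probe sets that the platform annotation assigns to exactly 1 of 9 genes: MEIS1, MEIS2, MEIS3, PBX2, PBX3, PKNOX1, PKNOX2, TGIF1 and TGIF2. This gave 32 of the 49395 probe sets on the array, from 2 each for MEIS1, TGIF1 and TGIF2 to 6 each for PKNOX1 and PKNOX2. After 12 h without serum, 3 samples received recombinant human BMP9 at 50 ng/ml and 3 control samples received 0 ng/ml, all for 24 h. The labels call the samples of a group biological replicates and do not say whether they came from separate cultures, so the p-values cover only the spread among them. All are 1 cell line, and the number of arrays limits the precision.

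TALE homeodomain proteins are transcription factors whose DNA-binding domain carries extra residues in the loop between the first and the second helix. PBX proteins bind DNA together with HOX proteins, and MEIS and PKNOX (PREP) proteins pair with PBX, which keeps PBX in the nucleus and changes the sites that it occupies. TGIF1 and TGIF2 are repressors that bind SMAD2 and SMAD3 with corepressors and so dampen TGF-beta responses. BMP9 signals mainly through the other branch, SMAD1/5/9.

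The promoters of the genes with the 2 smallest adjusted p-values, MEIS1 and PBX3, and of MEIS2, whose 5 probe sets all differed in the opposite direction to MEIS1, are shown for orientation. They are RefSeq windows of GRCh38.p14, from 250 bases before to 50 bases after an annotated start, written on the gene's strand. Capitals mark matches to any of 5 motifs searched on both strands: TGACAG (MEIS and PKNOX), TGATNNAT (PBX with HOX, N left in lower case), TGTCA (TGIF), GGCGCC and GTCTAGAC (SMAD). TGTCA and TGACAG overlap, since TGTCA on one strand reads TGACA on the other. The windows lie at chr2:66434875-66435174 (MEIS1, plus strand), chr9:125747933-125748232 (PBX3, plus strand) and chr15:37098647-37098946 (MEIS2, minus strand, the one of its 2 windows that held a match).
MEIS1: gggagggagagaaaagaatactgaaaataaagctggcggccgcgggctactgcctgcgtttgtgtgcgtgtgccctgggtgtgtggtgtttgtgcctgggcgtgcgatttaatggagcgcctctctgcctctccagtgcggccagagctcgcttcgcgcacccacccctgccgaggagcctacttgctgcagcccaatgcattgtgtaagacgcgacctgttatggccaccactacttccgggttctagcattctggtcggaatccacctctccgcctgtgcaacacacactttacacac
PBX3: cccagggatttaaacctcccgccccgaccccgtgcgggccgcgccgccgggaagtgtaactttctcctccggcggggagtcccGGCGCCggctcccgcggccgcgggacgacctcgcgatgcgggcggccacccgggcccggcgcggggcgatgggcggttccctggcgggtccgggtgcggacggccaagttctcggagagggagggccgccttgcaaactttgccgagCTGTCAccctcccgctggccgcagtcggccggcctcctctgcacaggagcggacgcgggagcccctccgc
MEIS2: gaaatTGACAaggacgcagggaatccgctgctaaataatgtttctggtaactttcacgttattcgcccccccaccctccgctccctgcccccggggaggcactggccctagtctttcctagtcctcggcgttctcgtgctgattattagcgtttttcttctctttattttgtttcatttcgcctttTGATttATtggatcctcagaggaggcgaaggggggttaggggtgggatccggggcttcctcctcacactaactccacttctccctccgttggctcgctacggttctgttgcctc
The MEIS1 window held none of the 5 motifs. The PBX3 window held GGCGCC at base 84 of the window and TGACAG on the reverse strand at base 231, which contains the TGTCA at base 232. The MEIS2 window held TGTCA on the reverse strand at base 6 and TGATNNAT at base 187. Across the 35116 promoter windows of the table, TGACAG occurred in 15.8%, TGATNNAT in 7.40%, TGTCA in 38.9%, GGCGCC in 19.2% and GTCTAGAC in 0.202%. Among 17 windows of the TALE genes, available for 8 of the 9 genes, the same motifs occurred in 4, 4, 7, 3 and 0. These windows are not all separate promoters, since 7 belong to TGIF1, and the 2 of TGIF2 overlap and share a GGCGCC site. Matches are letters in a window and were not tested for binding.

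MEIS1 was the only one of the 9 genes with a probe set past the test across the array. Its probe set 11726682_a_at read 6.82, 6.54 and 6.67 on the log2 scale with BMP9, against 7.27, 7.14 and 7.25 in control. All BMP9 arrays lay below all control arrays. MEIS1, a HOX and PBX cofactor known for its part in haematopoiesis and leukaemia, fell by 0.55 on the log2 scale (SE 0.091, 95% interval -0.75 to -0.35), or 1.46-fold (limma adjusted p = 0.0303), a sign that turned when arrays were scaled to poly-A controls. The group means were 6.68 ± 0.14 with BMP9 and 7.22 ± 0.068 in control (SD, n = 3 each). Of the 32 probe sets, 1 was lower and 0 were higher, against 0.276% called lower and 0.134% called higher among the 49293 probe sets tested (0.41% in either direction). At an unadjusted limma p under 0.05 the members counted 7 higher and 2 lower (28.1% of 32, against 11.4% of all probe sets tested). The members were chosen with earlier results of these data known, so this share is a description only. A separate unequal-variance test per probe set called 0 members and 0 probe sets on the whole array. The MEIS1 call was lost without any single control array or without BMP9 replicate 2 or 3 (limma adjusted p 0.0678 to 0.143). It was kept without BMP9 replicate 1 (limma adjusted p = 0.0386). In these fits the MEIS1 difference ran from -0.62 to -0.48. Over the whole array they called 57 to 97 probe sets lower, against 136 with all arrays.

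The other MEIS1 probe set, 11747255_a_at, read 6.79, 6.71 and 6.48 with BMP9, against 7.05, 6.86 and 7.24 in control. The groups again did not overlap. Its difference was -0.39 (SE 0.11), which did not pass (limma adjusted p = 0.230). Averaged over both probe sets, MEIS1 stood at 6.67 ± 0.12 with BMP9 and 7.14 ± 0.12 in control (SD, n = 3), a difference of -0.47 that missed the threshold when every gene was averaged in this way (limma adjusted p = 0.0543). The gene lies at chr2:66435125-66573869 of GRCh38.p14.

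**Figure D1:**
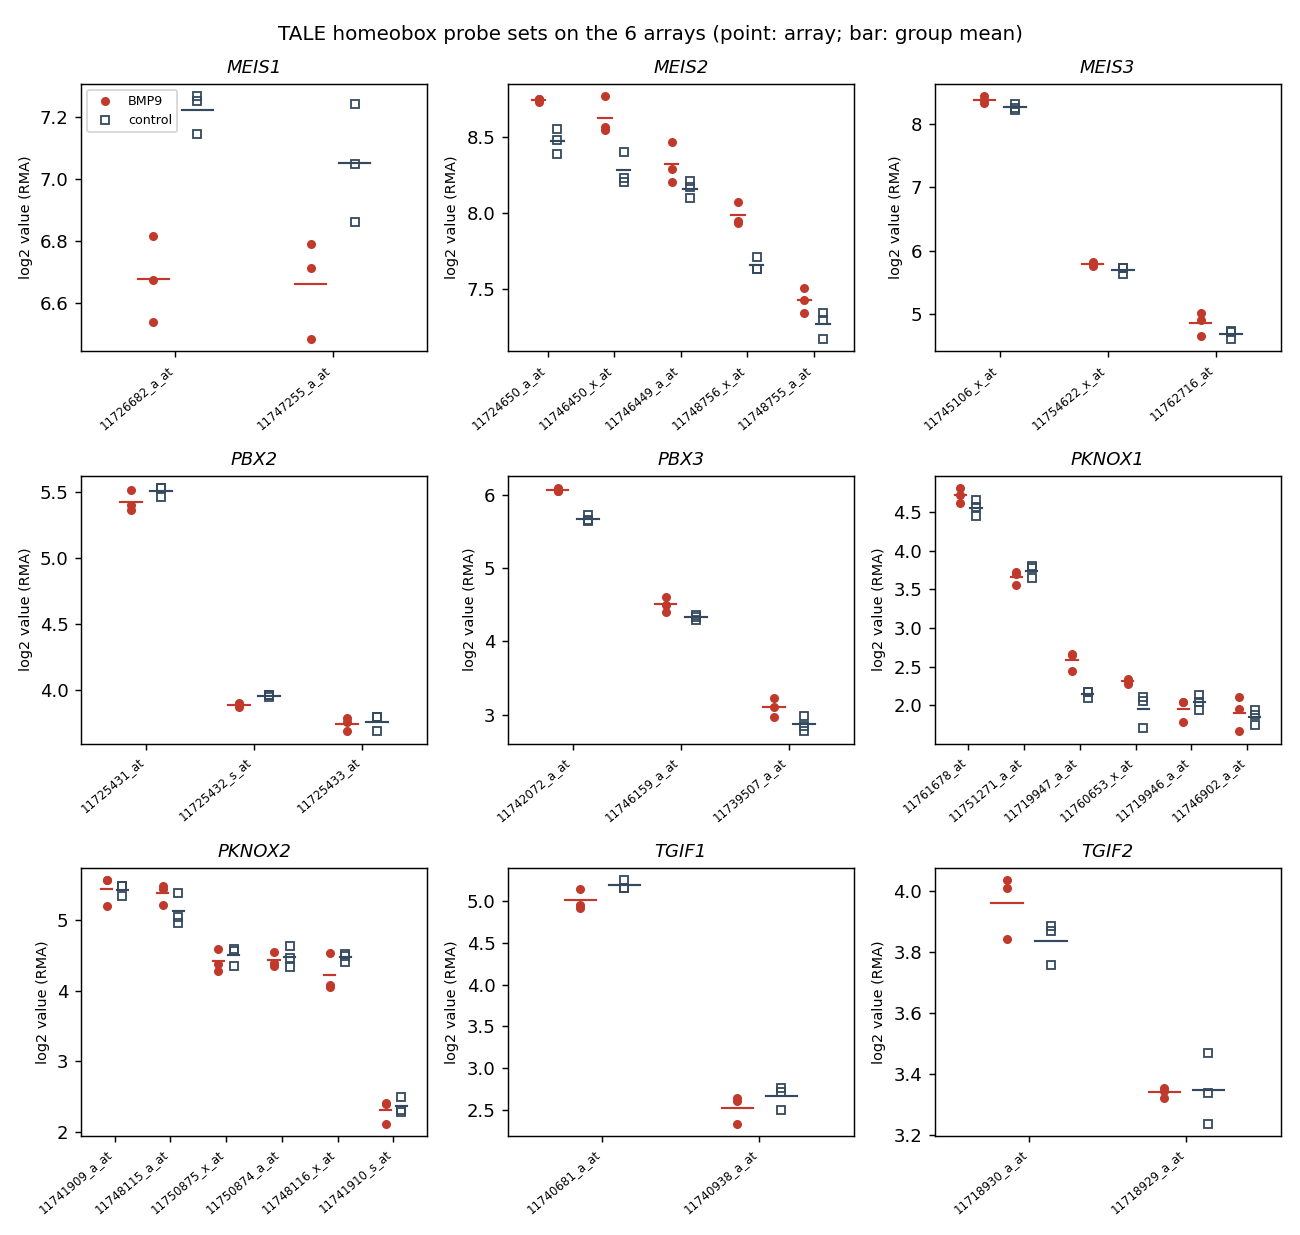
Log2 expression value (vertical axis) of each of the 32 probe sets (horizontal axis) in 9 panels, one per gene, each with its own vertical range. Red filled points are the 3 BMP9 arrays, open squares the 3 control arrays and bars the group means. On the deposited scale, which poly-A scaling turned for MEIS1, both MEIS1 probe sets are lower on every BMP9 array, and the brightest PBX3 probe set sits at 6.05 to 6.09 with BMP9 and at 5.64 to 5.73 in control.

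MEIS2, the paralogue of MEIS1, differed in the positive direction in all 5 of its probe sets, by 0.16 to 0.35, and none passed across the array (limma adjusted p 0.142 to 0.539). The brightest, 11724650_a_at, read 8.74, 8.75 and 8.75 with BMP9, against 8.48, 8.56 and 8.39 in control. The BMP9 arrays were nearly level with each other and all above control, a difference of 0.27 (SE 0.078). Probe set 11748756_x_at read 8.07, 7.94 and 7.95 with BMP9, against 7.63, 7.63 and 7.72 in control. This difference, 0.33 (SE 0.079), was the one with the smallest adjusted p of the gene (limma adjusted p = 0.142). In 4 of the 5 probe sets the BMP9 arrays all lay above the control arrays, while 11746449_a_at overlapped. Of all probe sets tested, 9.09% lay above in this way. The mean over the 5 probe sets was 8.22 ± 0.079 with BMP9 and 7.97 ± 0.037 in control (SD, n = 3, limma adjusted p = 0.144).

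The MEIS2 result changed with the treatment of dim probe sets. When only the 11438 probe sets with a mean log2 value of at least 5 were tested, 3 MEIS2 probe sets passed as higher (limma adjusted p 0.0213 to 0.0482), in a setting where 1.58% of probe sets were called higher. The same 3 passed with a minimum of 7 (limma adjusted p 0.00255 to 0.00950, 7.84% called higher) and with an intensity-dependent, robust prior (limma adjusted p 0.0215 to 0.0497, 0.310% called higher). The differences themselves were the same in all of these, since filtering and the prior alter the variance estimate and the number of tests. Of the 3, 2 have IDs ending in _x_at, which marks probes that can also match other transcripts. MEIS2 lies at chr15:36889204-37101311.

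MEIS3, the third MEIS gene, differed by 0.091 to 0.17 in its 3 probe sets (limma adjusted p 0.554 to 0.695). Its brightest probe set, 11745106_x_at, read 8.34, 8.38 and 8.45 with BMP9, against 8.26, 8.23 and 8.31 in control. The arrays did not overlap, but the difference of 0.12 had a 95% interval of -0.048 to 0.29. The 2 brighter MEIS3 probe sets both carry the _x_at mark, and the remaining one overlapped between the groups. The gene lies at chr19:47403124-47422233.

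Within each array, the gap between the brightest probe sets of MEIS2 and MEIS1 was 1.92, 2.21 and 2.08 with BMP9, against 1.21, 1.41 and 1.14 in control. The gap was wider on all BMP9 arrays, by 0.82 on the log2 scale. The exact two-sided permutation test gave p = 0.1, the smallest that 3 against 3 arrays allow, and 0.133 after adjustment over the 4 pairs compared, which were chosen after their values were seen. Because both values come from the same array, scaling an array as a whole leaves this gap unchanged. A probe set has its own affinity, so only the change of a gap between groups is read, not its sign or size. PBX3 minus MEIS1 was -0.61 with BMP9 and -1.55 in control, a signed difference of 0.94 (exact p = 0.1). PBX3 minus PBX2 was larger with BMP9 by 0.47 (exact p = 0.1) and MEIS2 minus MEIS3 by 0.15 (exact p = 0.2).

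PBX3, a PBX protein that partners HOX and MEIS factors, had the second smallest adjusted p of the family. Probe set 11742072_a_at read 6.06, 6.05 and 6.09 with BMP9, against 5.73, 5.65 and 5.64 in control. The 3 BMP9 arrays lay within a narrow band above every control array. The difference was 0.39 (SE 0.075, 95% interval 0.23 to 0.56, 1.31-fold), with 6.07 ± 0.022 with BMP9 and 5.67 ± 0.044 in control (SD, n = 3), and it missed the threshold across all probe sets (limma adjusted p = 0.0598). It passed with 1 probe set per gene (limma adjusted p = 0.0385), with a minimum mean of 5 (limma adjusted p = 0.00520) and with the intensity trend and robust prior (limma adjusted p = 0.0142). It did not pass with any single array left out (limma adjusted p 0.143 to 0.242), at differences of 0.38 to 0.42.

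The dimmer PBX3 probe sets differed in the same direction. Probe set 11746159_a_at read 4.61, 4.40 and 4.50 with BMP9, against 4.33, 4.29 and 4.36 in control, without overlap (difference 0.18, limma adjusted p = 0.454). Probe set 11739507_a_at overlapped by 1 array (difference 0.24, limma adjusted p = 0.382). Averaged over its 3 probe sets, PBX3 stood at 4.56 ± 0.045 with BMP9 and 4.29 ± 0.051 in control (SD, n = 3, limma adjusted p = 0.0989). The gene lies at chr9:125747373-125967377.

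PBX2, a broadly expressed PBX gene, differed by -0.080 to -0.015 in its 3 probe sets (limma adjusted p 0.748 to 0.963). The brightest, 11725431_at, read 5.37, 5.40 and 5.52 with BMP9, against 5.53, 5.46 and 5.53 in control. The groups overlapped, and the 95% interval of the difference ran from -0.25 to 0.094, which does not reach the -0.55 of MEIS1. PBX2 lies at chr6:32184733-32190202.

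**Figure D2:**
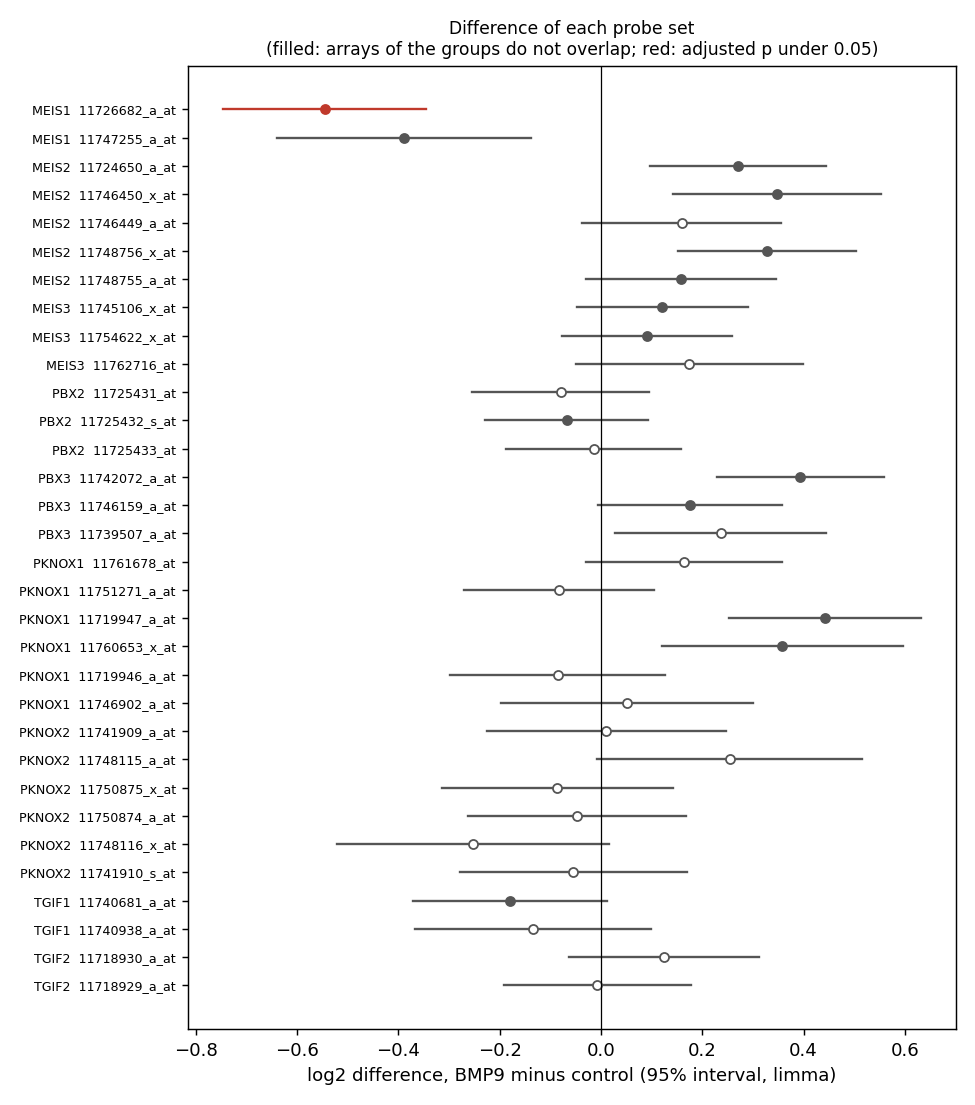
Log2 difference, BMP9 minus control, of each probe set with limma's 95% interval (horizontal axis), one row per probe set. Red marks the 1 probe set with an adjusted p under 0.05. Filled points mark probe sets whose BMP9 and control arrays do not overlap, 14 of 32 (43.8%, against 17.3% of all probe sets tested). MEIS1 lies left of zero (right of it with poly-A scaling), and all MEIS2, MEIS3 and PBX3 points lie right of it.

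PKNOX1 (PREP1), which pairs with PBX in place of MEIS, gave a split picture, with 4 probe sets differing upward and 2 downward. Its brightest probe set, 11761678_at, read 4.73, 4.62 and 4.82 with BMP9, against 4.65, 4.46 and 4.56 in control. These overlapped (difference 0.16, limma adjusted p = 0.519). The largest difference of the gene was in a dim probe set, 11719947_a_at, at 2.45, 2.65 and 2.66 with BMP9, against 2.17, 2.17 and 2.10 in control. This difference of 0.44 (SE 0.086) did not pass (limma adjusted p = 0.0649), and it passed with the intensity trend and robust prior (limma adjusted p = 0.0490). Another dim probe set, 11760653_x_at, also had no overlap (difference 0.36, limma adjusted p = 0.245). The remaining 3 differed by -0.085 to 0.052, and at such levels, without detection calls, none of these dim probe sets is known to lie above background. The gene lies at chr21:42974562-43033931.

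PKNOX2 (PREP2) had 6 probe sets with differences on both sides of zero, from -0.25 to 0.25, and the groups overlapped in each of them (limma adjusted p 0.455 to 0.980). The brightest, 11741909_a_at, read 5.20, 5.57 and 5.56 with BMP9, against 5.34, 5.48 and 5.48 in control, a difference of 0.011 (95% interval -0.23 to 0.25). BMP9 replicate 1 was the lowest array and the other BMP9 arrays the highest. Averaged over its probe sets, PKNOX2 stood at 4.37 ± 0.080 with BMP9 and 4.40 ± 0.0025 in control (SD, n = 3). The gene lies at chr11:125164751-125433389.

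TGIF1, the SMAD2/3 corepressor, read 4.96, 5.15 and 4.92 with BMP9, against 5.25, 5.15 and 5.16 in control, in probe set 11740681_a_at. The groups did not overlap, although BMP9 replicate 2 and control replicate 2 both rounded to 5.15. The difference was -0.18 (SE 0.087, 95% interval -0.37 to 0.011) and did not pass (limma adjusted p = 0.468). Its dim probe set, 11740938_a_at, differed by -0.13 with overlap (limma adjusted p = 0.675). The gene lies at chr18:3412009-3459978.

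TGIF2, the related repressor, read 3.84, 4.03 and 4.01 with BMP9, against 3.88, 3.87 and 3.76 in control, in probe set 11718930_a_at. BMP9 replicate 1 alone lay among the control arrays, and the difference of 0.12 did not pass (limma adjusted p = 0.618). The other probe set differed by -0.0075 (limma adjusted p = 0.983). TGIF2 lies at chr20:36573464-36593950.

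**Figure D3:**
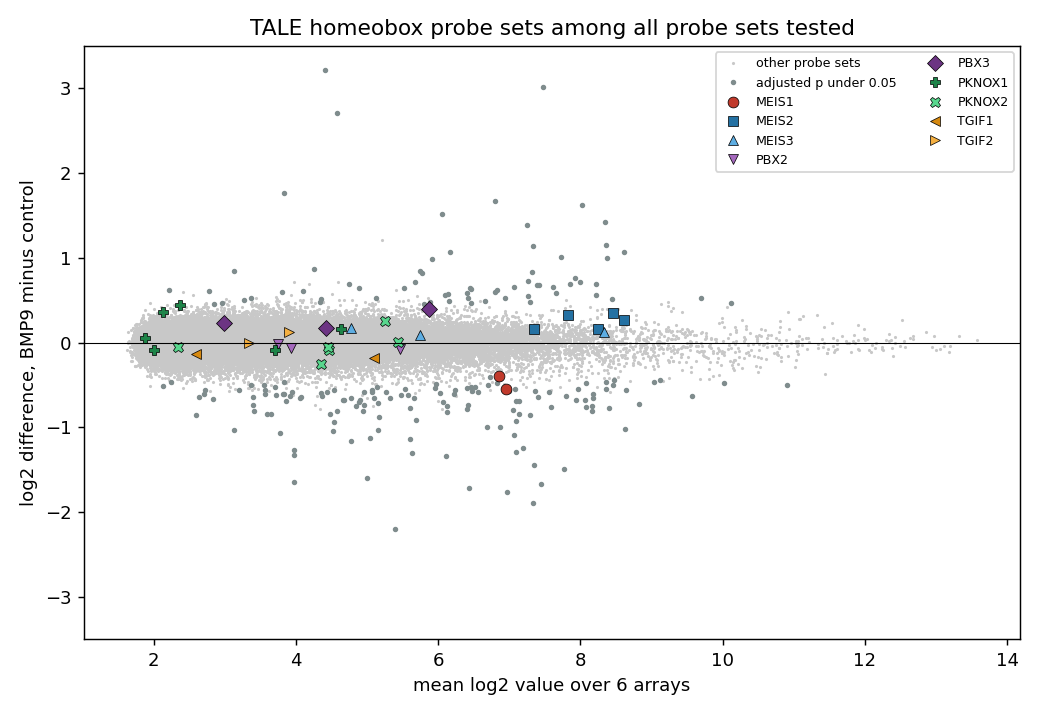
Mean log2 value over the 6 arrays (horizontal axis) and log2 difference, BMP9 minus control (vertical axis), of all 49293 probe sets tested. Light grey points are probe sets that did not pass, dark grey points those with an adjusted p under 0.05, and coloured symbols the members by gene. The members lie between -0.55 and 0.44, near the edge of the cloud for MEIS1 and inside or at its upper edge for MEIS2 and PBX3.

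Over the whole family, the arrays of the groups did not overlap in 14 of 32 probe sets (43.8%), 10 with BMP9 above and 4 with BMP9 below, against 17.3% of all probe sets tested (9.09% above and 8.17% below). The 10 above came from MEIS2 (4), MEIS3 (2), PBX3 (2) and PKNOX1 (2), and the 4 below from MEIS1 (2), PBX2 (1) and TGIF1 (1). Probe sets of a gene measure the same transcripts, so these counts are not 32 separate observations. The members were also chosen with earlier results of these data known. The difference was positive in 18 of 32 (56.2%), against 52.6% of all probe sets. The median difference of the members was 0.072, against 0.0078 over all probe sets. Of the 32 probe sets, 14 had a mean log2 value of at least 5, and 1 of those 14 was called, against 1.18% of all probe sets that bright.

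All differences are relative to the deposited scale, on which the median over all probe sets was 0.0078. Spike-in control probe sets of the array read lower with BMP9, and scaling the arrays to them shifted every difference upward. With hybridisation controls the median of all probe sets moved to 0.21, and 9290 probe sets of the array were called higher and 147 lower, against 66 higher and 136 lower on the deposited scale. The first MEIS1 probe set was still called lower there, at -0.34 (limma adjusted p = 0.0315) against -0.55 on the deposited scale. With poly-A controls the median moved to 0.61, with 47423 higher and 26 lower, and MEIS1 stood at 0.055, which is below that median. MEIS1, PBX2 and TGIF1 were the genes whose brightest probe set was negative on the deposited scale and turned positive with poly-A scaling, PBX2 and TGIF1 also with hybridisation scaling.

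**Figure D4:**
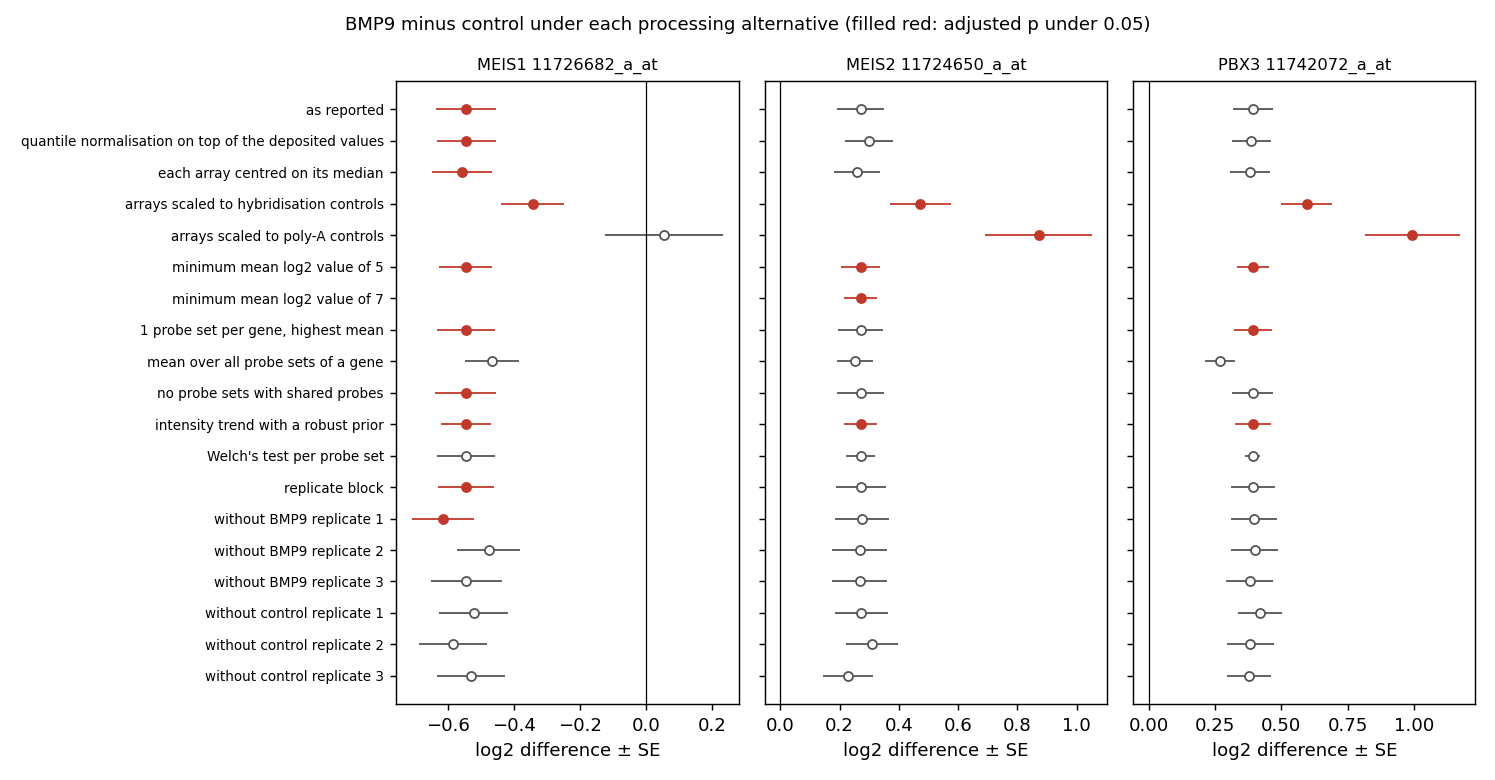
Log2 difference, BMP9 minus control, with its SE (horizontal axis) under each processing alternative (rows) for the brightest probe set of MEIS1, MEIS2 and PBX3. Filled red points have an adjusted p under 0.05, and a missing point was not tested under that setting. MEIS1 is below zero in all rows other than poly-A scaling (0.055), and MEIS2 and PBX3 are above zero in every row.

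Genes that work with the TALE factors were counted from lists written from textbook knowledge, but with earlier results of these data known. Their unadjusted counts stand against the 11.4% of all probe sets with an unadjusted p under 0.05. Their medians stand against 0.0078 over all probe sets. Of 8 other TALE homeobox genes (the IRX genes, MKX and PBX4; 14 probe sets), 0 passed in limma, with 1 higher and 0 lower at an unadjusted p under 0.05 and a median difference of 0.019. Of the HOX cluster genes, 27 of 39 had a probe set of their own (47 probe sets), and 0 passed, with 4 higher and 1 lower unadjusted and a median of 0.019. The HOXA cluster was covered by HOXA2 alone, so its other genes were not read. HOXA2 differed by 0.43 and 0.42 in its probe sets (limma adjusted p 0.0845 and 0.111). Of 7 other PBX partners (11 probe sets), such as PBXIP1, 0 passed, with 1 higher and 0 lower unadjusted and a median of 0.011. Of 12 SMADs, corepressors and other partners of TGIF1 (54 probe sets), 0 passed, with 5 higher and 4 lower unadjusted and a median of -0.0074. The unequal-variance test called 0 probe sets on the whole array. Its 0 in each list, and in the BMP targets below, therefore adds nothing to the limma counts.

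The treatment itself was visible in BMP target genes, where 6 of 18 probe sets and 4 of 6 genes rose in limma and 0 fell (median difference 0.36). The brightest probe set of SMAD6, the inhibitory SMAD, stood at 8.99 ± 0.078 with BMP9 and 5.97 ± 0.17 in control (SD, n = 3, limma adjusted p = 2.32e-07). ID1, ID3 and ID4 also rose, and each of the 4 genes passed in only part of its probe sets. Of markers for the cell line, all 6 mesenchymal genes had a probe set in the brightest part of the array (percentile 87.3 or higher of mean value), and COL3A1 fell. The 13 markers of hepatocytes, endothelial cells, leukocytes and cholangiocytes, each by its brightest probe set, ranged from percentile 10.2 to 95.8. None passed (lowest limma adjusted p = 0.170), and CD68 was the brightest of them. The endothelial marker VWF, at percentile 88.1, also lay above 87.3. The 23 background control probe sets ran from 1.67 to 10.0 in mean value (median 2.39), so they set no common floor for detection. PKNOX1 probe sets 11719947_a_at (mean 2.37) and 11760653_x_at (mean 2.13) lay below that median.

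The genes whose pattern over the 6 arrays was most like that of MEIS1 were TCF4, a basic helix-loop-helix factor, RNF139, a ubiquitin ligase gene, and ATP6V0B, a subunit gene of the vacuolar proton pump. Likeness was the root mean square difference between profiles centred on the control mean, among 124 probe sets of other genes that passed with a mean of at least 5. It was 0.027 for TCF4, 0.048 for RNF139 and 0.054 for ATP6V0B, whose own log2 differences were -0.56, -0.55 and -0.56. These are descriptions over 6 arrays in 2 groups, and profiles with a like difference between the groups score as alike.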

How the data were processed

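Per the labels' protocols, RNA of 6 samples was turned into biotinylated cRNA by amplification from the 3′ end, and each was put on 1 Affymetrix array. The authors deposited 1 log2 value per probe set and array, computed with RMA per the submitters' processing notes. Its version is not given in the sources used here. Log base 2 is RMA's usual output and suits the values, which ran between 1.38 and 13.6. RMA normalises by quantiles, which removes most of a change shared by all transcripts. Of 49395 probe sets, 102 array controls were left out. Gene names came from the platform annotation, updated by Entrez ID to GRCh38.p14, where all 32 members matched.

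The 3 BMP9 arrays were set against the 3 control arrays with limma 3.58.1 (R 4.3.3, lmFit and eBayes, no covariate) on every probe set, with Benjamini-Hochberg adjustment over 49293 and a threshold of 0.05. Each difference is BMP9 minus control, and its SE is the moderated one. The script was tested on simulated data. Figures used matplotlib 3.10.9. The named genes are all members, list genes that passed (at most 4 per list), HOXA2 as the only HOXA gene covered and the 3 most like MEIS1. The members and lists were chosen with earlier results of these data known. Alternatives were other normalisations and scalings, filters on dim probe sets, 1 value per gene, no shared probes, another prior, a separate unequal-variance test per probe set, a fold minimum, the replicate number as a block and each array left out.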

Additional observations from a re-analysis of the deposited data

How the results depend on the processing

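The count of members called higher, 0 on the deposited values, was 16 of 32 with scaling to hybridisation controls (18.8% of all features called higher), 29 of 32 with poly-A scaling (96.2%), 4 of 14 and 3 of 6 with a minimum mean of 5 (1.58%) and 7 (7.84%), 1 of 9 with 1 probe set per gene (0.232%) and 5 of 32 with the intensity trend and robust prior (0.310%). The count called lower was 1 on the deposited values, where 0.276% of all features were called lower. It became 0 with poly-A scaling (0.0527%), averaged probe sets (0.303%) and the unequal-variance test per probe set (0%). A minimum mean of 7 (11.8%) leaves out MEIS1 and also gave 0. So did a 1.5-fold minimum, where 93 of 49293 features were called lower. With single arrays left out the count lower ranged from 0 to 1 (0.116% to 0.197% of all features). The count higher was 0 throughout (0.0629% to 0.0852%). With the replicate block the counts were 0 higher and 1 lower, with MEIS1 at -0.55 (limma adjusted p = 0.0394), and over the array 44 were higher and 116 lower, against 66 and 136. The replicate numbers did not pair the samples (r -0.0017, 0.034 and -0.023 for same-numbered arrays), and the block ended no call of a member.

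Signs turned with poly-A scaling in MEIS1 (0.055 and 0.21 in its probe sets), PBX2 (0.52) and TGIF1 (0.42), and with hybridisation scaling in PBX2 (0.12) and TGIF1 (0.021). Each scaling takes a constant off each array, so it adds the same shift to the difference of every probe set. A negative difference smaller in size than that shift turns positive by arithmetic alone. The brightest PKNOX2 probe set, at 0.011, was -0.0010 with median centring and -0.030 with averaged probe sets, and ranged from -0.050 to 0.13 with single arrays left out. The MEIS1 call held in 9 of 17 alternatives (adjusted p 0.00374 to 0.759 over all 17). Of the 32 members, 18 had a mean under 5, and the table has no detection calls.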
